A study of Mus musculus with 12 samples.

Results

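The tumour suppressor gene Trp53 and 9 genes of its pathway were followed through ribosome footprinting and matched mRNA sequencing of Ba/F3 cells, an interleukin-3-dependent mouse pro-B cell line. The 10 genes were taken from a list of p53 and its best known regulators and targets, by a rule that names genes and sets no threshold on their values, although earlier results of these data were known when the list was made. All 10 were listed both in the mRNA table, which held 41255 genes, and in the table of ribosome-protected fragments (RPF), which held 10080. They were Trp53, its inhibitors Mdm2 and Mdm4, and the targets Cdkn1a, Ccng1, Sesn1, Zmat3, Gadd45a, Trp53inp1 and Phlda3.

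The study compared cells carrying the leukemia-associated R98S mutation of ribosomal protein RPL10 with cells carrying WT RPL10. Both groups expressed human RPL10 from a retroviral vector, and in both the endogenous mouse Rpl10 was knocked down by a short hairpin RNA, so that the groups differed by design only in the R98S change. Each group consisted of 3 monoclonal lines, each grown from a single cell (R98S clones 11, 13 and 35, WT clones 28, 29 and 36), and every clone gave 1 mRNA library and 1 RPF library, 12 libraries in all. Cells for both kinds of library had ribosomes held in place with cycloheximide (100 µg/ml, 5 min). Clones of 1 group are separate single-cell lines, and whether each had its own transduction is not stated. The p-values thus measure the spread between clones and not between animals or patients.

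p53 is a transcription factor that is kept scarce in unstressed cells by MDM2, a ubiquitin ligase, together with its relative MDM4. On DNA damage, nucleolar stress or nutrient stress this inhibition is relieved, and p53 binds pairs of a 10-letter half-site near its targets and raises their transcription. Free ribosomal proteins can bind and block MDM2, which ties the pathway to defects of ribosome production. Among the targets, Cdkn1a encodes the cell cycle inhibitor p21, Mdm2 closes a feedback loop, and others act in growth control, DNA repair, antioxidant defence and RNA stability.

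Sequence upstream of the start sites is shown for Trp53, its regulator Mdm2 and the targets Cdkn1a, Ccng1 and Gadd45a, to set the half-sites in these windows beside the values below. The best known p53 elements of Mdm2 and Gadd45a are intronic and lie outside these windows. RefSeq promoter windows on GRCm38.p6, from 250 bases before to 50 bases after a start site, were listed for 8 of the 10 members, all but Zmat3 and Trp53inp1, with 11 windows in all. The windows were searched for the p53 half-site in its usual 10-letter consensus, which is its own reverse complement, so that 1 search covers both strands. Capitals below mark a half-site or, in Ccng1 and Cdkn1a, a double site of 2 adjoining half-sites with at most 1 mismatch to the consensus. The stretches lie at chr11:69580259-69580318 (Trp53, + strand), chr10:117710910-117710969 (Mdm2, − strand), chr17:29090881-29090972 (Cdkn1a, + strand), chr11:40755437-40755506 (Ccng1, − strand) and chr6:67037413-67037472 (Gadd45a, − strand), each read 5′ to 3′ on its gene's strand.
Trp53: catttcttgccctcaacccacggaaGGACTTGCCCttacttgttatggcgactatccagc
Mdm2: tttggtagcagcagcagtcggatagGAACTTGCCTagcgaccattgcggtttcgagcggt
Cdkn1a: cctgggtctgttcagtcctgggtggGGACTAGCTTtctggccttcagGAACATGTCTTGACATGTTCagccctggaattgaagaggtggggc
Ccng1: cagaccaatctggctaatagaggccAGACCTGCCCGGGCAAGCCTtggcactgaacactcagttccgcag
Gadd45a: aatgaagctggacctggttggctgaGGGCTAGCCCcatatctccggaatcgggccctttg
A half-site was found in 6 of the 11 member windows, from 6 members, the sixth being a second start site of Sesn1, against 8.36% of the 32851 promoter windows listed for mouse genes. A double site with at most 1 mismatch was found for 2 members, Cdkn1a and Ccng1, against 0.0883% of all windows. In the Cdkn1a window a further half-site lies upstream of the double site, and 2 half-sites with a spacer of up to 13 bases occurred in 0.0731% of all windows. No half-site was found in the windows of Mdm4 or Phlda3, in the other Sesn1 window or in the second Cdkn1a window. That second Cdkn1a window, at chr17:29093519-29093818, belongs to a start site downstream of the one shown, so the double site lies near the upstream start only. A match describes letters in a window and is not a measured binding site. The members were listed as known p53 genes, so their shares beside those of all windows are descriptive and not a test.

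Depth differed between libraries. The deposited values are normalized counts, from which whole reads could be recovered, giving 3477723 to 10883086 reads per RPF library and 6617457 to 23136595 per mRNA library. The mRNA library of WT clone 28 was the shallowest, and 1 read was worth 2.69 normalized counts there against 0.784 to 0.860 in the other 5. Counts listed for mouse Rpl10 in mRNA ranged from 1449 to 4501 normalized counts and the groups overlapped (log2 fold change -0.42 ± 0.32 SE, limma adjusted p = 0.551). Reads were mapped to the mouse genome, and whether reads of the human RPL10 vector fell on this gene was not tested. These counts are thus not read as a measure of the knockdown. Of 11 pro-B and Ba/F3 markers, 6 reached a mean of 10 normalized counts, among them Il3ra, Csf2rb and Csf2rb2, which encode chains of interleukin-3 receptors. The summed level of the 11 was 100806 to 122567 in R98S clones and 48090 to 93811 in WT clones, without overlap. Most of it came from Csf2rb and Csf2rb2, each higher in every R98S clone than in any WT clone, while Ptprc had the higher mean in WT (8109 against 4393). Ebf1, Vpreb1 and Igll1 stayed under 10, and Kit and Pax5 were listed at 0 in every mRNA library, which is not read as absence because at least 1 gene with footprints in every clone, Sco2, is listed in the same way. None of 4 T-cell markers reached 10, while 3 of 4 mast cell and basophil markers did, with a summed level of 287 to 1096 in R98S clones and 98.7 to 214 in WT clones. Of 4 myeloid markers 1 reached 10 (summed level 0 to 25.8 in R98S and 28.9 to 50.2 in WT), as did 3 of 3 erythroid markers (205 to 393 in R98S and 190.4 to 333 in WT). The part of these differences in the results below was not tested.

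Across the 10 members, no mRNA difference and 1 RPF difference between R98S and WT clones passed the test, and that one was Zmat3. Changes were tested with limma on log2(normalized count + 1) over all genes with a mean of at least 10. Benjamini-Hochberg adjustment was used, with a threshold of 0.1. Fold changes below are on that log2 scale, R98S against WT. The translational efficiency (TE) of a gene in a clone is its RPF count over its mRNA count, each with 1 added. The study used the same threshold, but with DESeq2 for mRNA and the Babel package for TE. With DESeq2 on the recovered reads, 2 members were called in mRNA and 3 in RPF. With 3 clones against 3, an exact permutation test of 1 gene cannot go below p = 0.1, the value reached whenever the groups do not overlap.

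**Figure D1:**
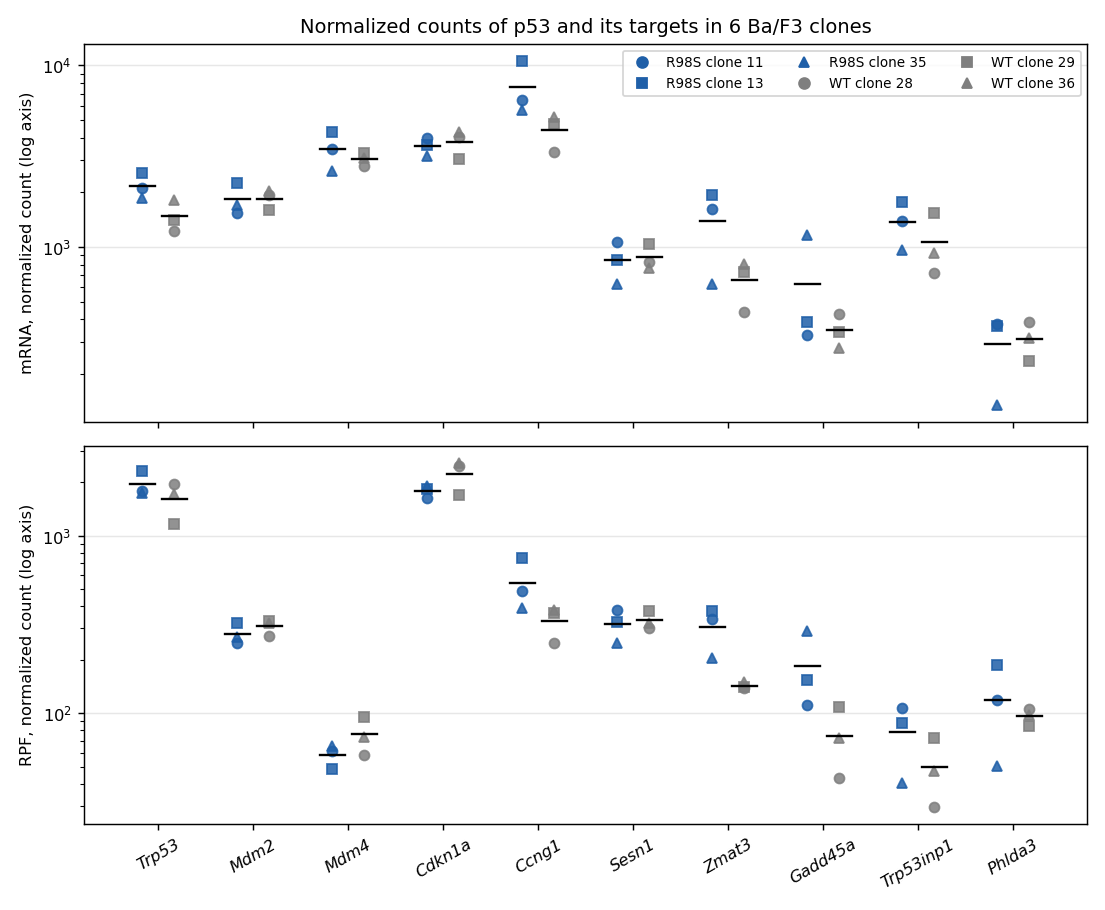
Normalized counts of the 10 members on log axes, mRNA above and RPF below, with 1 point per clone (blue R98S, grey WT, marker shape for the clone) and a black bar at each group's mean of 3. In mRNA the R98S points lie above all WT points for Trp53 and Ccng1, and in RPF for Ccng1, Zmat3 and Gadd45a.

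Trp53, the gene of p53 itself, had more mRNA in each R98S clone than in any WT clone, but the difference did not pass the test across all genes. Its mRNA measured 2105, 2539.6 and 1869.8 normalized counts in R98S clones 11, 13 and 35 against 1229.9, 1414 and 1806 in WT clones 28, 29 and 36. The lowest R98S clone, 35, stood only a little above the highest WT clone, 36. The means were 2172 ± 339.8 and 1483 ± 294 (SD, n = 3 each), and the log2 fold change was 0.56 ± 0.20 (SE, limma adjusted p = 0.172, 95% interval 0.11 to 1.00). In bulk RNA such as this, fewer cells expressing a gene and less RNA per cell cannot be told apart. Trp53 footprints numbered 1775, 2317 and 1728 normalized counts in R98S clones 11, 13 and 35 against 1938, 1164 and 1716 in WT clones 28, 29 and 36. Here WT clone 28, the lowest in mRNA, was the second highest of all 6, and the groups overlapped (log2 fold change 0.29 ± 0.22 SE, limma adjusted p = 0.493, 95% interval -0.20 to 0.78). The TE of Trp53 was 0.843, 0.913 and 0.924 in the R98S clones and 1.58, 0.823 and 0.9503 in the WT clones. WT clone 28 thus stood apart from the other 5, and the TE log2 fold change of -0.26 (95% interval -0.83 to 0.30, limma adjusted p = 0.763) became 0.013 without that clone.

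By rule, the 3 genes whose mRNA followed Trp53 most closely over the 6 clones were named. They were Edem3 (Pearson r = 0.994 on log2 mRNA), Zik1 (r = 0.990) and Tceanc2 (r = 0.989), and 79 tested genes had an r over 0.95. Edem3, which acts on misfolded glycoproteins in the endoplasmic reticulum, had its highest mRNA in R98S clone 13 (925 normalized counts) and its lowest in WT clone 28 (459), as Trp53 did. With 6 clones that also share their libraries' depth, these correlations describe the order of the clones only.

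The inhibitors Mdm2 and Mdm4 showed no difference past the test in either assay. Mdm2 mRNA measured 1537, 2237 and 1713 normalized counts in R98S clones 11, 13 and 35 against 1925, 1593 and 2029 in WT clones 28, 29 and 36. The highest and the lowest value both belonged to R98S clones (log2 fold change -0.03 ± 0.19 SE, limma adjusted p = 0.962), and the 95% interval ran from -0.46 to 0.41. Mdm2 footprints numbered 249.9, 324 and 267 normalized counts in R98S clones 11, 13 and 35 against 270.4, 330.0 and 323 in WT clones 28, 29 and 36. These values also overlapped (log2 fold change -0.14, 95% interval -0.56 to 0.29, limma adjusted p = 0.730). Mdm4 mRNA measured 3467, 4324 and 2624 normalized counts in R98S clones 11, 13 and 35 against 2790.1, 3293 and 3075 in WT clones 28, 29 and 36. Clone 13 was highest and clone 35 lowest, so that all WT values lay between R98S values (log2 fold change 0.16, 95% interval -0.30 to 0.61, limma adjusted p = 0.740). Mdm4 footprints numbered 61.2, 48.6 and 65.5 normalized counts in R98S clones 11, 13 and 35 against 58.3, 95.8 and 73.8 in WT clones 28, 29 and 36. The footprint difference was -0.36 on the log2 scale with an interval of -0.97 to 0.26 (limma adjusted p = 0.511).

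Mdm4 was set apart from the other members by how few footprints it had for its mRNA. Its ratio of footprints to mRNA was 0.0182 ± 0.00694 in R98S and 0.0250 ± 0.00411 in WT (SD, n = 3 each), where the median gene had 0.320 and 0.321. Of 9043 genes tested in both assays, 7 had a lower mean ratio in R98S and 17 in WT. Part of this rank goes with the long exons of Mdm4, which add up to 14798 bases against 1524 coding bases, merged over its annotated transcripts. Set per length, as footprints per coding kilobase over mRNA per exonic kilobase, the ratio stood at the 1.09 and 3.30 percentile of 8770 genes with known lengths. The TE difference between the genotypes was not past the test (log2 fold change -0.51, 95% interval -1.41 to 0.38, limma adjusted p = 0.715). No other member stood as low, although Ccng1 and Trp53inp1 also had under 0.08 footprints per mRNA in every clone.

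**Figure D2:**
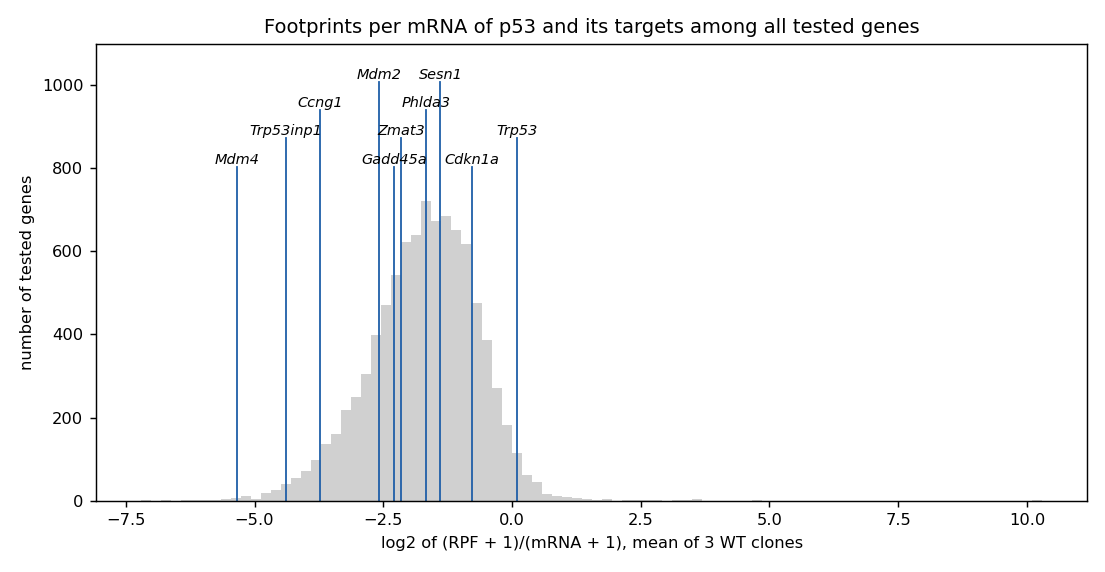
Histogram of the ratio of footprints to mRNA of all 9043 tested genes, as log2 of (RPF + 1)/(mRNA + 1) averaged over the 3 WT clones, with a line at each member. Mdm4 lies in the far left tail, below all but 17 genes, Ccng1 and Trp53inp1 are also low, and Trp53 lies to the right at the 97.5 percentile. The ratios are without account of length.

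Cdkn1a, the p21 gene and the most used readout of p53 activity, showed no mRNA difference past the test. Cdkn1a mRNA measured 4006, 3636 and 3162 normalized counts in R98S clones 11, 13 and 35 against 4044, 3050.1 and 4302 in WT clones 28, 29 and 36. The WT values enclosed all R98S values (log2 fold change -0.07 ± 0.19 SE, 95% interval -0.49 to 0.35, limma adjusted p = 0.894). Cdkn1a footprints numbered 1622, 1817 and 1904 normalized counts in R98S clones 11, 13 and 35 against 2455, 1689.7 and 2551 in WT clones 28, 29 and 36. WT clones 28 and 36 lay above all others and WT clone 29 among the R98S clones, with a log2 fold change of -0.30 ± 0.20 (SE, 95% interval -0.74 to 0.13, limma adjusted p = 0.418). Cdkn1a was abundant all the same, with 4271 ± 347 footprints per coding kilobase in R98S and 5353 ± 1132 in WT (SD, n = 3 each), the latter at the 98.4 percentile of genes. An unnamed gene model on the opposite strand, AC167363.2, covers 273 bases or 7.68% of its exons, and whether counting used strand was not stated.

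Ccng1, which encodes cyclin G1, a regulator that recruits a phosphatase to MDM2, was higher in every R98S clone than in any WT clone in both assays, without passing the test. Ccng1 mRNA measured 6453, 10547 and 5678 normalized counts in R98S clones 11, 13 and 35 against 3322, 4761 and 5191 in WT clones 28, 29 and 36. The means were 7559 ± 2616 and 4424 ± 979 (SD, n = 3 each), and the log2 fold change was 0.74 ± 0.26 (SE, limma adjusted p = 0.162, 95% interval 0.16 to 1.33). Ccng1 footprints numbered 486, 745 and 391 normalized counts in R98S clones 11, 13 and 35 against 247, 366 and 383 in WT clones 28, 29 and 36. Clone 35 and WT clone 36 nearly touched, at 391 and 383, and the log2 fold change was 0.67 ± 0.26 (SE, limma adjusted p = 0.178). Without 1 clone, the mRNA log2 fold change ran from 0.48 (limma adjusted p = 0.482, without R98S clone 13) to 0.92 (0.132, without R98S clone 35). In footprints it ran from 0.42 (limma adjusted p = 0.541, without R98S clone 13) to 0.88 without R98S clone 35, the only such fit to pass (0.0812), and it was 0.47 without WT clone 28 (0.389). DESeq2 on the recovered reads gave adjusted p = 0.0546 for mRNA and 0.0987 for footprints. Footprints per mRNA of Ccng1 were nearly constant, from 0.0691 to 0.0772 over the 6 clones (TE log2 fold change -0.07, 95% interval -0.56 to 0.42, limma adjusted p = 0.936), so that its footprints followed its mRNA clone by clone.

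Sesn1, a stress-induced inhibitor of mTORC1 signalling, had overlapping groups in both assays. Sesn1 mRNA measured 1069, 851 and 627 normalized counts in R98S clones 11, 13 and 35 against 824, 1038 and 769 in WT clones 28, 29 and 36. The mRNA difference was -0.07 on the log2 scale with a 95% interval of -0.59 to 0.45 (limma adjusted p = 0.917). Sesn1 footprints numbered 383, 324 and 249 normalized counts in R98S clones 11, 13 and 35 against 301, 378 and 320.2 in WT clones 28, 29 and 36. The interval in footprints was -0.54 to 0.39 (log2 fold change -0.08, limma adjusted p = 0.868). R98S clone 11 was highest and R98S clone 35 lowest in both assays.

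Zmat3, a zinc finger RNA-binding protein that acts on splicing and RNA stability, was the only member called, through its footprints. The gene lies on chromosome 3, at chr3:32334792-32366014 (GRCm38, − strand). Zmat3 footprints numbered 340.4, 374 and 205 normalized counts in R98S clones 11, 13 and 35 against 139, 141 and 149 in WT clones 28, 29 and 36. All R98S values lay above all WT values, which were close together. The means were 306 ± 89.5 in R98S and 143 ± 5.50 in WT (SD, n = 3 each), and the log2 fold change was 1.05 ± 0.25 (SE, limma adjusted p = 0.0416, 95% interval 0.51 to 1.59). The call was lost without R98S clone 11 (limma adjusted p = 0.162), R98S clone 13 (0.191), WT clone 28 (0.105) or WT clone 36 (0.104), and over all 12 alternatives the adjusted p ranged from 0.00178 to 0.191 with the direction kept. Zmat3 mRNA measured 1627, 1929 and 623 normalized counts in R98S clones 11, 13 and 35 against 440.4, 732 and 806 in WT clones 28, 29 and 36. Here R98S clone 35 fell among the WT clones, and the log2 fold change of 0.97 ± 0.40 (SE) did not pass (limma adjusted p = 0.244, 95% interval 0.06 to 1.88). Without R98S clone 35 the mRNA log2 fold change was 1.47 (limma adjusted p = 0.0334), but it was 0.66 without R98S clone 13 (0.627), 0.78 without R98S clone 11 (0.575) and 0.70 without WT clone 28 (0.376), and DESeq2 on all clones gave adjusted p = 0.0442. The TE difference did not pass (log2 fold change 0.08, 95% interval -0.54 to 0.71, limma adjusted p = 0.944). A TE of 0.330 in R98S clone 35 and 0.316 in WT clone 28 stood above 0.186 to 0.210 in the other 4.

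Gadd45a, a stress sensor in growth arrest and DNA repair, showed the widest mRNA spread between R98S clones of any member. Gadd45a mRNA measured 329, 388 and 1159.7 normalized counts in R98S clones 11, 13 and 35 against 427, 342 and 278 in WT clones 28, 29 and 36. R98S clone 35 alone stood above the WT clones, and the groups overlapped (log2 fold change 0.62 ± 0.43 SE, limma adjusted p = 0.498). Gadd45a footprints numbered 112, 153 and 289 normalized counts in R98S clones 11, 13 and 35 against 43.0, 108 and 72.5 in WT clones 28, 29 and 36. In footprints all 3 R98S clones exceeded all WT clones, with R98S clone 11 just above WT clone 29. The log2 fold change of 1.28 ± 0.39 (SE, 95% interval 0.41 to 2.15) was the largest of any member and missed the threshold narrowly (limma adjusted p = 0.101). It passed without WT clone 29 (limma adjusted p = 0.0673) and with DESeq2 (adjusted p = 0.0164). Leaving out any other clone gave a limma adjusted p of 0.105 (R98S clone 11) to 0.251 (WT clone 28), with a log2 fold change of 0.94 without WT clone 28 and 0.90 without R98S clone 35. The TE log2 fold change was 0.66 with an interval of -0.20 to 1.52 (limma adjusted p = 0.675). The TE of WT clone 28, 0.103, stood below 0.2497 to 0.397 in the other 5 clones, and without that clone the change was 0.16. An antisense transcript, E230016M11Rik, overlaps 337 bases or 19.1% of the Gadd45a exons and averaged 4.51 normalized mRNA counts. Reads of the overlap cannot be assigned without strand.

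Trp53inp1, which encodes a nuclear protein that promotes p53-dependent death and autophagy, had mRNA values of 1387, 1761 and 967 normalized counts in R98S clones 11, 13 and 35 against 717, 1531 and 929 in WT clones 28, 29 and 36. Trp53inp1 footprints numbered 107, 88.0 and 40.3 normalized counts in R98S clones 11, 13 and 35 against 29.6, 72.9 and 47.4 in WT clones 28, 29 and 36. The groups overlapped in both assays (mRNA log2 fold change 0.40, 95% interval -0.28 to 1.09, limma adjusted p = 0.543, and RPF 0.62, -0.31 to 1.54, limma adjusted p = 0.440). Its footprints per mRNA were low, 0.0570 ± 0.0184 in R98S and 0.0476 ± 0.00474 in WT (SD, n = 3 each), with 127 and 100 of 9043 genes lower. Set per length, with 6475 exon bases against 717 coding bases, the Trp53inp1 ratio stood at the 19.5 percentile in R98S and 15.1 in WT. Phlda3, a pleckstrin homology protein that competes with AKT at the membrane, overlapped as well. Phlda3 mRNA measured 375, 369 and 135 normalized counts in R98S clones 11, 13 and 35 against 387, 236 and 316 in WT clones 28, 29 and 36. Phlda3 footprints numbered 118, 188 and 50.4 normalized counts in R98S clones 11, 13 and 35 against 106, 84.3 and 97.5 in WT clones 28, 29 and 36. R98S clone 35 was lowest in both assays, and the log2 fold changes were -0.21 in mRNA (95% interval -1.09 to 0.67, limma adjusted p = 0.838) and 0.12 in footprints (-0.76 to 1.00, limma adjusted p = 0.896).

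**Figure D3:**
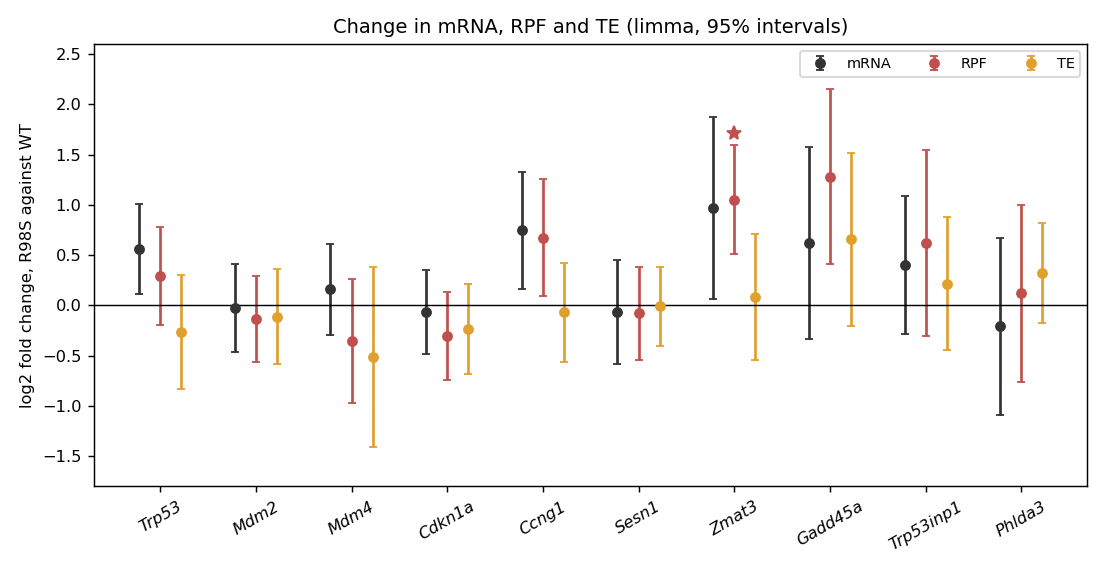
Log2 fold changes of the 10 members, R98S against WT, in mRNA, RPF and TE, with the 95% intervals of the limma fit and a star where the adjusted p was under 0.1. The single star marks Zmat3 footprints at 1.05, and the TE intervals of all members cross 0. The intervals of Mdm2, Mdm4, Cdkn1a, Sesn1, Trp53inp1 and Phlda3 cross 0 in all 3 measures.

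Taken over the list, 6 members were higher and 4 lower in R98S in mRNA, and likewise in RPF. In mRNA none was called by limma, against 3.03% of 11344 tested genes called higher and 3.91% called lower. At an unadjusted p under 0.05 there were 3 (Trp53, Ccng1 and Zmat3), against 17.9% of all genes. DESeq2 called 2 members higher (Ccng1 and Zmat3), against 5.21% of all genes, and edgeR none, against 3.22%. In RPF limma called 1 higher and none lower, against 3.13% and 4.62% of 9580 genes. At an unadjusted p under 0.05 there were again 3 (Ccng1, Zmat3 and Gadd45a), against 20.3% of all genes. DESeq2 called 3 higher (Ccng1, Zmat3 and Gadd45a), against 4.90%, and edgeR 1 (Zmat3), against 3.51%. Groups did not overlap, with R98S higher, for 2 members in mRNA and 3 in RPF, against 11.9% and 12.5% of all genes. R98S was lower without overlap for no member, against 11.6% in mRNA and 12.8% in RPF. The median log2 fold change of the members was 0.28 in mRNA and 0.21 in RPF, against 0.01 over all genes in each assay. The median absolute change was 0.30 and 0.33, against 0.26 and 0.28.

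No TE difference of a member passed the test. None was called by limma on the TE of each clone, none had an unadjusted p under 0.05, against 7.85% of all genes, and DESeq2 and edgeR interaction models called none. Over the 9043 genes tested, 0% were called higher and 0.0221% lower. No member's TE values separated the groups, against 7.45% of genes with R98S higher and 7.36% with R98S lower. The member TE log2 fold changes ran from -0.51 (Mdm4) to 0.66 (Gadd45a, 0.16 without WT clone 28) with a median of -0.04.

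Levels of the members were compared per length, with the exons or coding stretches of all annotated transcripts of a gene merged. Such a length can exceed that of the transcripts present in the cells, which was not corrected for. In mRNA per exonic kilobase Ccng1 came first in R98S clones, with 2152 ± 745 (SD, n = 3), followed by Cdkn1a with 1014 ± 119 and Trp53 with 537 ± 84.0, and these did not overlap with each other or with Mdm2, next at 359.9 ± 71.7. From Mdm2 to Zmat3, the lowest at 122 ± 59.8, each neighbour overlapped the next. In WT clones Ccng1 (1260 ± 279) and Cdkn1a (1069 ± 186) overlapped, as did Trp53 (367 ± 72.7) and Mdm2 (364 ± 44.7), and Zmat3 was again lowest at 57.7 ± 16.9. In footprints per coding kilobase the order was led by Cdkn1a in both genotypes. Trp53 followed at 1670 ± 282 in R98S and 1382 ± 343 in WT, and Ccng1 came next at 658 ± 223 and 404 ± 90.2. Mdm4 was lowest with 39.9 ± 5.99 and 51.9 ± 12.9, at the 15.5 and 20.3 percentile of genes. Without account of length, Trp53 had the most footprints per mRNA of the members, with a mean ratio of 0.893 in R98S and 1.12 in WT. Set per length, Cdkn1a stood higher, at the 97.0 percentile in R98S and 98.1 in WT, against 93.8 and 96.0 for Trp53. Zmat3 moved from the 32.6 percentile in R98S to the 94.7 percentile once its long exons, 11435 bases against 870 coding bases, were taken into account.

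The clones of 1 genotype differed in these genes. R98S clone 35 was below both R98S clone 11 and R98S clone 13 in the mRNA of 8 of the 10 members, all but Mdm2 and Gadd45a, against 35.7% of all tested genes, and above both for Gadd45a, against 37.5%. In footprints it was below both for 6 members and above both for 3 (Mdm4, Cdkn1a and Gadd45a), against 37.3% of genes in each direction. R98S clone 13 had the highest mRNA of all 6 clones for 6 members, and WT clone 28 the lowest for 4. The share over all genes was not taken for these counts, so they are not read as particular to the members. The span between the highest and lowest R98S clone had a median of 0.82 on the log2 scale over the members' mRNA, against 0.43 over all genes, and 0.74 against 0.47 in footprints. Among WT clones it was 0.58 against 0.56 in mRNA and 0.61 against 0.52 in footprints. The widest mRNA spans among R98S clones were those of Gadd45a (1.82), Zmat3 (1.63) and Phlda3 (1.47), at the 97.0, 96.1 and 95.1 percentile. The mRNA and RPF values had the same highest clone for 6 members and the same lowest for 6, again without a share over all genes.

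**Figure D4:**
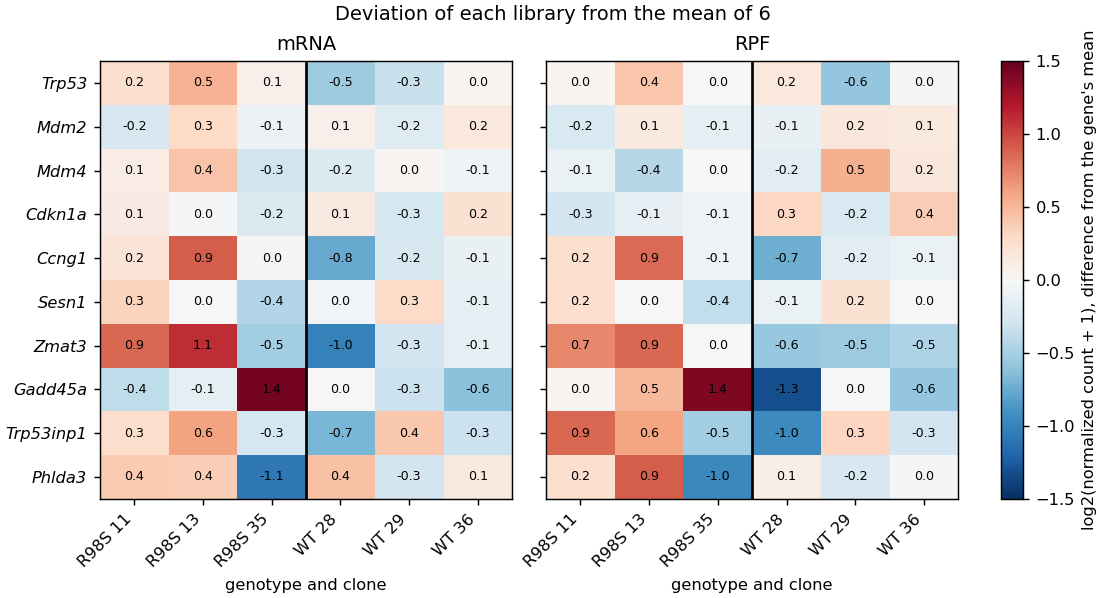
Deviation of each library from the gene's mean over its 6 libraries, as log2(normalized count + 1), for mRNA (left) and RPF (right), with red above and blue below the mean. R98S clone 35 is blue or near 0 for most members but deep red for Gadd45a in both assays, and WT clone 28 is blue for Ccng1, Zmat3 and Trp53inp1 in both.

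The wider pathway was read from 74 further genes in lists of p53 regulators, targets by function, and cell cycle genes that p53 is known to lower through p21. Of these, 67 were tested in mRNA, with 2 called higher and 3 lower, and 64 in footprints, again with 2 higher and 3 lower. Over all genes 3.03% were called higher and 3.91% lower in mRNA, and 3.13% and 4.62% in footprints, so the number of calls in these lists was close to the background, and the genes below are given as single values. None of 61 was called in TE by limma. Trp63 and Trp73, the p53 relatives, had too few reads to be tested in either assay.

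None of 17 p53 regulators, among them the ribosomal proteins Rpl5 and Rpl11 that bind MDM2 and the kinases Atm and Chek2, was called in mRNA or RPF. The largest mRNA change among them was that of Ppp1r13l, which encodes the p53 inhibitor iASPP, at 0.63 on the log2 scale (limma adjusted p = 0.364). Among 15 cell cycle and DNA repair targets, the Gadd45a relative Gadd45g had lower mRNA in R98S, with 22.2, 26.2 and 18.1 normalized counts against 83.2, 64.3 and 43.1 (log2 fold change -1.44 ± 0.38 SE, limma adjusted p = 0.0750). Leaving out any 1 of the 6 clones ended that call, with limma adjusted p from 0.102 (without WT clone 36) to 0.217 (without R98S clone 11). Ckap2, a spindle-associated protein, was lower in footprints (log2 fold change -0.77 ± 0.19 SE, limma adjusted p = 0.0495), a call lost without R98S clone 11, R98S clone 13, WT clone 28 or WT clone 29 (highest limma adjusted p = 0.191).

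Among 14 apoptosis targets, Eda2r, a receptor of the tumour necrosis factor family, was nearly silent in R98S clones, with 0, 1 and 2 recovered mRNA reads against 13, 45 and 117 in WT clones (limma adjusted p = 0.00323). WT over R98S this was a ratio of 74.3, with a 95% exact binomial interval of 25.01 to 364 that covers counting error only, and the call held in each of 6 fits without 1 clone. Eda2r met the filter on the mean only through the WT clones (mean 0.846 normalized counts in R98S and 54.6 in WT). Eda2r was not among the genes listed for RPF, which all had footprints in every clone, and so was not tested in footprints. Bax, the pore-forming effector of mitochondrial apoptosis, was higher in R98S footprints, at 1349.7, 1573 and 1130.1 against 868, 770.4 and 974 (log2 fold change 0.63 ± 0.19 SE, limma adjusted p = 0.0910). The Bax call held only without R98S clone 35 and was lost without any other clone, with limma adjusted p up to 0.320 (without R98S clone 13). Among 12 metabolism and stress targets, Ddit4, an inhibitor of mTORC1 that also answers to other stresses, rose in both assays. Its mRNA measured 1799.7, 2384 and 1049.7 normalized counts in R98S clones 11, 13 and 35 against 414, 586 and 549 in WT clones 28, 29 and 36. The log2 fold change was 1.69 ± 0.29 in mRNA (SE, limma adjusted p = 0.0134) and 1.73 ± 0.33 in footprints (SE, limma adjusted p = 0.0180), and both calls held in each fit without 1 clone. Tigar, a regulator of glycolysis listed as 9630033F20Rik, was lower in mRNA (91.3, 117 and 143 against 290.0, 168 and 355, log2 fold change -1.16 ± 0.32 SE, limma adjusted p = 0.0873). That call was lost without R98S clone 11, R98S clone 13, WT clone 28 or WT clone 36 (limma adjusted p up to 0.300).

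Of 15 genes known to be lowered through p21, 7 were higher and 8 lower in mRNA, and 4 higher and 11 lower in footprints (median log2 fold change 0.00 and -0.30, against 0.01 over all genes in each assay). In TE 2 were higher and 13 lower (median log2 fold change -0.32, against -0.0014 over all genes). The list had 1 called higher in mRNA and 2 called lower in footprints, where 3.03% and 4.62% of all genes were called in those directions. Called were Ccna2, cyclin A2, in mRNA, and Ccnb1, cyclin B1, and Kif23, a kinesin of cell division, in footprints. Ccna2 mRNA measured 10442, 6262 and 9960.3 normalized counts in R98S clones 11, 13 and 35 against 3537, 5422 and 4202 in WT clones 28, 29 and 36. Its mRNA was higher in R98S (log2 fold change 1.00 ± 0.24 SE, limma adjusted p = 0.0516), while its footprints overlapped (log2 fold change -0.12, limma adjusted p = 0.786). The TE of Ccna2 was lower in each R98S clone than in any WT clone, as for 7.36% of all genes. That TE difference did not pass the test (log2 fold change -1.12, limma adjusted p = 0.517). The mRNA call was lost without R98S clone 11 (limma adjusted p = 0.207), R98S clone 35 (0.134) or WT clone 36 (0.154). Ccnb1 footprints numbered 556, 533 and 558 normalized counts in R98S clones 11, 13 and 35 against 1042, 818 and 704 in WT clones 28, 29 and 36. They were lower in R98S (log2 fold change -0.62 ± 0.19 SE, limma adjusted p = 0.0969), a call that leaving out any 1 of the 6 clones ended (limma adjusted p from 0.107 without WT clone 36 to 0.281 without R98S clone 13). Kif23 footprints numbered 673, 621 and 659.9 normalized counts in R98S clones 11, 13 and 35 against 1587, 1073 and 891 in WT clones 28, 29 and 36. These were lower too (log2 fold change -0.82 ± 0.22 SE, limma adjusted p = 0.0637), and the call was lost without R98S clone 11 (limma adjusted p = 0.168), R98S clone 13 (0.226) or WT clone 28 (0.149).

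**Figure D5:**
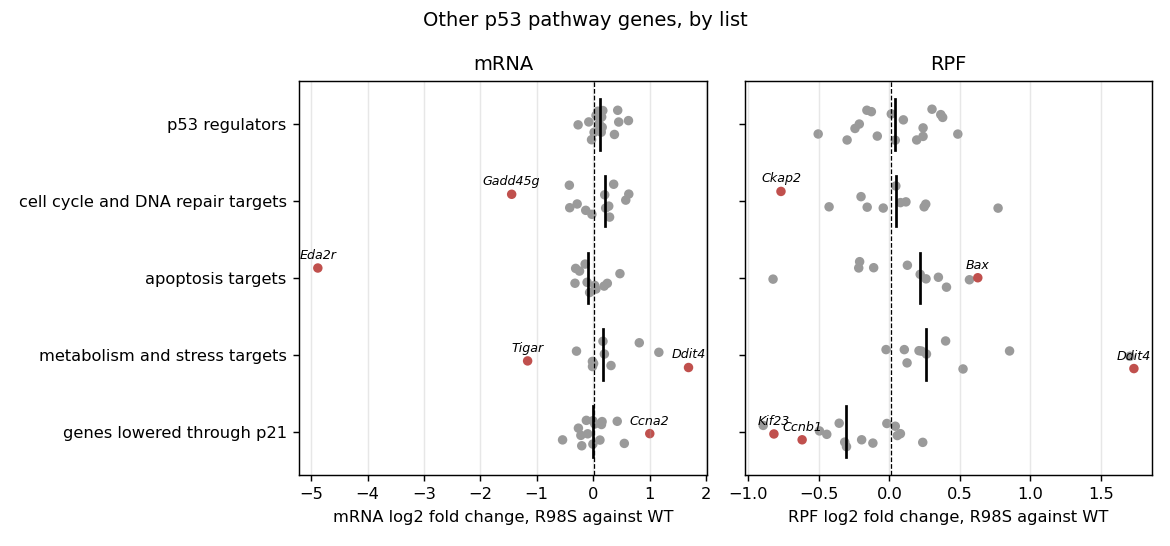
Log2 fold changes, R98S against WT, of the other pathway genes tested, by list, in mRNA (left) and RPF (right, on its own scale), with 1 point per gene, called genes in red, a black bar at each list's median and a dashed line at the median of all genes. Most points lie within 1 of 0, Eda2r mRNA, with 3 reads in all R98S clones together, lies at a fitted -4.88, and Ddit4 lies near 1.7 in both assays.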

How the data were processed

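The deposited values are signal values in the sense of normalized gene counts, 1 table for mRNA and 1 for RPF, which the authors made by mapping reads to the mouse genome, counting them per gene and dividing by DESeq2 size factors. The submitters' processing notes name TopHat2 2.0.11, Bowtie2, SAMtools and DESeq2. Per the labels, 3 technical replicates were merged for each footprinting library and the mRNA kit marks strand. In the study's methods, reads under a mapping quality of 10 were dropped, and footprints in the first 15 and last 5 codons were left out. Whether counting used strand is not given in the sources used here. Genes at 0 in every library, 19995 of 41255, occur only in the mRNA table. All 10080 genes of the RPF table had footprints in every RPF library. A gene without footprints in any 1 clone is thus not listed there, and shares over RPF genes cover this set only.

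From these values, whole reads were recovered for 100% of values (tolerance 0.1 read), and the count tests on them called 1283 mRNA and 1095 RPF genes with DESeq2 and 805 and 808 with edgeR. Normalized values are not counts, so limma 3.58.1 (R 4.3.3, trend, pseudocount 1, mean of at least 10, Benjamini-Hochberg over all genes, threshold 0.1) was the main test, with DESeq2 1.42.0 and edgeR 4.0.16 as alternatives. It called 344 of 11344 genes higher and 443 lower in mRNA, and 300 and 443 of 9580 in RPF. The tables were normalized separately and tested separately. TE was tested within each clone, on genes with at least 10 in all 12 libraries, because labels give the mRNA and RPF library of a clone the same number and both came from that clone. Deviations of the 2 libraries correlated at 0.218 to 0.681 (mean 0.519).

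GENCODE annotation (GRCm38) matched 36776 of 41255 mRNA and 9785 of 10080 RPF genes. Named genes are the members, other list genes that were called, the largest mRNA change per list and the 3 genes most like Trp53. Members and lists were chosen with earlier results of these data known. Alternatives were a pseudocount of 5, no filter, library weights, subtraction of chromosome medians and leaving out each clone. Fitting was tested on simulated data. One cell type marker is not reported here.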

Additional observations from a re-analysis of the deposited data

How the results depend on the processing

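The number of members called in mRNA, 0 with limma, became 2 with DESeq2 on recovered reads and 2 with library weights, and 0 to 1 when a clone was left out. In RPF, 1 became 2 with a pseudocount of 5 or with chromosome medians subtracted, 3 with DESeq2 or library weights, and 0 to 2 when a clone was left out. In TE it was 0 in every fit run, also with no replicate block, that is with the libraries of a clone unpaired, where 3 genes of all those tested were called against 2 with the pairing. Of the other pathway genes, 5 called in mRNA became 2 to 7 when a clone was left out, and 5 called in RPF became 8 with DESeq2 and 1 to 7 when a clone was left out. Over all mRNA genes, DESeq2 called 1283 and library weights 2959 against 787, and over RPF genes 1799 with library weights against 743. Without 1 clone, 315 to 1113 mRNA and 229 to 1148 RPF genes were called, and DESeq2 called 6 TE genes against 2. Directions reversed in 15 of 120 mRNA, 5 of 120 RPF and 9 of 110 TE values of the members. With library weights Sesn1 became 0.19 in mRNA and 0.040 in RPF and Phlda3 0.089 in mRNA. With chromosome medians subtracted, mRNA of Mdm2 became 0.063, of Mdm4 -0.046 and of Sesn1 0.021, and Phlda3 RPF -0.049. Sesn1 TE became 0.0062 in the edgeR interaction. With a clone left out the log2 fold change ran from -0.18 to 0.090 for Mdm2 mRNA, -0.014 to 0.35 for Mdm4, -0.22 to 0.029 for Cdkn1a, -0.25 to 0.13 for Sesn1 and -0.45 to 0.28 for Phlda3, from -0.22 to 0.088 for Sesn1 RPF and -0.30 to 0.63 for Phlda3 RPF, and in TE from -0.46 to 0.013 for Trp53, -0.23 to 0.045 for Mdm2, -0.045 to 0.053 for Sesn1, -0.15 to 0.33 for Zmat3 and -0.033 to 0.40 for Trp53inp1. None of these had passed the test, and the cause of the changes was not tested. Leaving out a clone leaves fewer clones in a group, and the mRNA library of WT clone 28 limits precision at low counts.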

Other observations

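A pair of pathway genes was singled out after their values were seen. Sco2, a copper chaperone of the respiratory chain and a p53 target, was listed at 0 in all 6 mRNA libraries but had 226, 237 and 235 normalized footprint counts in R98S clones 11, 13 and 35 and 265, 128 and 215 in WT clones 28, 29 and 36. What set the listed 0 was not tested.

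Sesn2, the stress-responsive relative of Sesn1, stood out in R98S clone 35, where its mRNA measured 3425 normalized counts against 1146 and 1135 in R98S clones 11 and 13. WT clones 28, 29 and 36 had 1380.3, 1378 and 1546. Its footprints followed with 1266 in R98S clone 35 against 491 and 537 in R98S clones 11 and 13, and 576, 456 and 555 in the WT clones. Between the genotypes it did not pass the test (mRNA log2 fold change 0.20, limma adjusted p = 0.834, RPF 0.40, limma adjusted p = 0.514). Sesn2 and Gadd45a were thus both highest in R98S clone 35 in both assays, the clone in which Zmat3, Sesn1, Phlda3, Ccng1, Trp53 and Trp53inp1 were the lowest of the 3 R98S clones in mRNA and RPF.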
